A study of Arabidopsis thaliana with 8 samples.

Results

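The effect of the hy5 mutation was measured in Arabidopsis thaliana roots treated with the cytokinin benzyladenine (BA). The comparison was defined by the labels alone and set 2 hy5 BA libraries against 2 WT BA libraries, 4 of the 8 libraries of the series. Counts were summed over the transcripts of each locus, and 22682 of 27628 loci had enough counts to be tested. The other 4 libraries, WT Control and hy5 Control (2 each), helped to estimate the spread and show the same mutation effect without the hormone.

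All 4 groups shared 1 week of upright growth on solid medium with 0.5x MS salts, after which the roots were cut from the shoots with a scalpel and put in liquid medium of the same salt strength. WT BA and hy5 BA roots received 0.1 uM BA in that liquid, and WT Control and hy5 Control roots received vehicle only. The WT plants carry no mutation named in the labels and the mutant plants carry hy5, whose allele is not stated there, nor are the length of treatment and the number of plants per library. Nothing in the labels says that the 2 libraries of a group were separate cultures. The p-values therefore cover only the spread between these libraries, which may be technical.

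HY5 is a basic leucine zipper transcription factor that promotes light responses, among them flavonoid synthesis and greening, and binds short DNA elements with an ACGT core, such as the G-box. In darkness the ubiquitin ligase COP1, working with SPA proteins, marks HY5 for breakdown. Cytokinins are sensed by histidine kinase receptors, which pass phosphate through carrier proteins to type-B response regulators. These switch on target genes, and among them are type-A response regulators that feed back to weaken the signal.

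Because HY5 is known to bind ACGT elements, the 300 bases upstream of each annotated start were searched for the G-box CACGTG, which reads the same on both strands. The 60-base windows below, from the TAIR10.1 genome, hold the G-box of 5 genes that were lower in hy5 BA than in WT BA and of 2 that were higher, all of them described further on. Capitals mark the G-box, and each line runs 5′ to 3′ on the strand of its gene.
TT4 (lower): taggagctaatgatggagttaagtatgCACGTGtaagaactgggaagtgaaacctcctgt
MYB12 (lower): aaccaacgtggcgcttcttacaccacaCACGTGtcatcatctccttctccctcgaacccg
CHIL (lower): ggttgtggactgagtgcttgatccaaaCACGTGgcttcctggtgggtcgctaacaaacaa
ELIP1 (lower): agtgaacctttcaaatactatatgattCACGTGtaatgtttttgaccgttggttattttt
LHY (lower): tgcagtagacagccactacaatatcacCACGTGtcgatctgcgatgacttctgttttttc
UGT76E1 (higher): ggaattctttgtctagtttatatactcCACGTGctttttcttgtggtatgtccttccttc
PAL4 (higher): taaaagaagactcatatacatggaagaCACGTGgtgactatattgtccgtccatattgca

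The windows lie at chr5:4488216-4488275 (TT4, plus strand), chr2:19476181-19476240 (MYB12, plus), chr5:1563192-1563251 (CHIL, plus), chr3:8085703-8085762 (ELIP1, minus), chr1:37919-37978 (LHY, minus), chr5:24007916-24007975 (UGT76E1, minus) and chr3:3203844-3203903 (PAL4, plus). The centre of the G-box lay 230 bases upstream of the start in TT4, 115 in MYB12, 64 in CHIL, 63 in ELIP1, 77 in LHY, 38 in UGT76E1 and 114 in PAL4. Of the 22536 tested genes with such a promoter, 7.76% held a G-box. The share was 8.74% (48 of 549) among genes called at least 2-fold lower in hy5 BA and 15.5% (9 of 58) among those at least 8-fold lower. It was 12.35% (53 of 429) among those called at least 2-fold higher. The motif CACGTC, which reads GACGTG on the other strand, occurred in 6.94% of all promoters, 11.7% of those of the 2-fold lower genes and 6.99% of those of the 2-fold higher genes. The motif GACGTC was in 2.72% of all promoters and in 1.28% of those of the 2-fold lower genes. Neighbouring matches can share at most 1 base, at their ends. A match is a run of letters and not a measured binding site. FLS1, MRD1 and HYH, described below, held none of these motifs in that window.

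The libraries held 29928501 to 35289411 estimated counts each, and the first principal component of gene levels, with 71.5% of the variance, set all 4 WT libraries apart from all 4 hy5 libraries. In hy5 Control 1 21.6% and in hy5 BA 2 23.6% of transcripts carried an estimate within 0.001 of a whole number without being one, against 1.34 to 1.53% elsewhere. Whether this touched the results was not tested beyond leaving both libraries out. Levels below are TMM-scaled CPM (counts scaled to a common library size). Folds are log2 values of hy5 over WT with their standard error from edgeR's quasi-likelihood test, with 2 libraries per group, and a gene was called when its Benjamini-Hochberg adjusted p over all genes tested was under 0.05. Reads from genes that overlap cannot be told apart because the strand setting is not stated. Of the genes named below this concerns ADH1, ARR6, ARR9, ASFT, ASN1, AT1G06000, AT1G34047, AT2G34080, BBX20, BBX24, BBX25, BOA, CA1, EXPA7, F3H, FAR1, FRO3, GBF1, JAZ10, LHCA4, LHCB1.3, LHCB1.5, LHCB3, LHCB4.2, LNK1, MRD1, MYC2, P5CS1, PHOT2, PORB, PSAG, PSAH2, PSBR, PYK10, RAB18, RCA, RHM1, SDR1, SPA3, SPA4, TPS13, TT4, UGT76E1, UVR2 and XCP1.

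HY5 (AT5G11260, chromosome 5, 3593335 to 3595073, minus strand) followed the genotype labels in every library. It stood at 31 and 31.4 CPM in WT BA and 1.97 and 0.989 CPM in hy5 BA, a fold of -4.37 ± 0.16 (adjusted p = 9.94e-11). The signal left in hy5 BA was 70 and 32 counts, all assigned to the transcript AT5G11260.1. The second transcript, AT5G11260.2, was listed at 0 in 3 of the 4 hy5 libraries and at 10.2 to 17.8 estimated counts in the WT libraries.

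In BA-treated roots the hy5 libraries had less RNA of many flavonol, photosystem, chlorophyll and UV protection genes and more RNA of jasmonate genes. Of 22682 genes tested 5321 were called (23.5%), 2505 of them higher in hy5 BA (11%) and 2816 lower (12.4%). With library size as the only scaling the balance turned, to 2760 higher and 2589 lower. Most folds were small, with medians of 0.52 among the higher and -0.49 among the lower genes. A change of at least 2-fold was called in 996 genes (4.39%), 430 higher (1.9%) and 566 lower (2.5%). The largest changes were more often decreases: 168 genes were at least 4-fold lower and 74 at least 4-fold higher, and 59 were at least 8-fold lower and 19 at least 8-fold higher. The hy5 BA and WT BA libraries did not overlap in 60.8% of all genes tested, with hy5 BA above in 31.3% and below in 29.5%, so separated libraries alone say little about a gene. Because whole roots were sequenced, fewer cells of a type and less RNA per cell cannot be told apart in any of these values.

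Calls were more frequent at high levels and depended on single libraries. Of genes under a mean log2 CPM of 0, 10.7% were called, and of those over 6, 28.8%. By chromosome the called share ran from 23.3 to 24.1%, and within 1 Mb of HY5 it was 22.5% (117 of 521). Without hy5 BA 2 there were 3366 calls, 1586 higher and 1780 lower, and without both libraries of near-whole counts 2998. In every run that left out 1 library, 1417 of the lower genes (50.3%) and 1092 of the higher genes (43.6%) were called. A gene given below as higher or lower kept its call in all those runs unless a loss is stated. Of the genes named as called, DESeq2 did not call AHP6, AT3G62930, CKX3, ELIP2, LHCB2.1, LOX2, PSAG, PSAL and RBCS1B.

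The 12 largest decreases, HY5 itself among them, were led by MRD1 (chromosome 1, 19963047 to 19964712), named for its lower level in mto1, a mutant that accumulates methionine. It had 24.2 and 23.6 CPM in WT BA and 0.0846 and 0.247 CPM in hy5 BA, a fold of -7.17 ± 0.21 (adjusted p = 2.48e-12). AT5G57785, a locus with no described product, had 17 and 20 CPM in WT BA and 0.564 and 0.0309 CPM in hy5 BA (-5.88 ± 0.38, adjusted p = 1.03e-05). The peroxidase gene AT5G47000 had 6.09 and 7.17 CPM in WT BA and 0.395 and 0.0927 CPM in hy5 BA (-4.71 ± 0.29). All 3 were under 1 CPM in the mutant and over 6 CPM in WT. The cysteine proteinase gene AT2G34080 (-4.61 ± 0.30), the undescribed AT3G52740 (-4.34 ± 0.25), the Rossmann-fold protein SDR1 (-4.27 ± 0.25) and the facilitator superfamily transporter AT4G04750 (-4.01 ± 0.27) followed. TT4, FLS1, F3H and MYB12 of the flavonol pathway made up the rest.

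What remained of such genes differed between the hy5 BA libraries. Among 42 genes called at least 8-fold lower whose mean log2 CPM was 1 or more, hy5 BA 1 exceeded hy5 BA 2 in 38, with a median ratio of 1.53. For the same genes WT BA 1 exceeded WT BA 2 in 19 (median ratio 0.974) and hy5 Control 1 exceeded hy5 Control 2 in 9 (0.88), and over all genes hy5 BA 1 was the higher in 49.7%. The sizes of the largest decreases therefore rest in part on which library is used. The fold of TT4, for example, was -6.75 without hy5 BA 1 and -4.91 without hy5 BA 2.

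Among the 12 largest increases were 3 loci for defensin-like proteins, small cysteine-rich peptides of which many act against microbes. AT5G33355 (chromosome 5, 12599250 to 12599944) had 0.625 and 0.576 CPM in WT BA and 26.2 and 30.2 CPM in hy5 BA (5.54 ± 0.30, adjusted p = 3.18e-06). AT1G34047 had 0.987 and 0.352 CPM in WT BA and 20.7 and 17.3 CPM in hy5 BA (4.83 ± 0.32), and AT2G36255 had 2.01 and 0.992 CPM in WT BA and 25.3 and 27.5 CPM in hy5 BA (4.14 ± 0.19). All 3 stood near or under 2 CPM in WT and over 17 CPM in the mutant. AT5G33355 shares 326 bases with AT3G59930 at 97.5% identity, so the division of reads between them is uncertain.

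ASN1, an asparagine synthetase known to be induced by darkness and sugar shortage, was the most abundant of the 12. It had 19.5 and 18.6 CPM in WT BA and 111 and 116 CPM in hy5 BA (2.57 ± 0.09, adjusted p = 1.09e-11). The GDSL lipase AT1G28660 had 0.724 and 0.544 CPM in WT BA and 7.92 and 8.62 CPM in hy5 BA (3.70 ± 0.19). RAB18, a dehydrin that responds to abscisic acid, had 2.2 and 2.46 CPM in WT BA and 13.1 and 11.2 CPM in hy5 BA (2.38 ± 0.16). The mutant exceeded WT several-fold in each. The others were the lectin AT5G28520 (2.65 ± 0.22), the glucosyltransferase UGT76E1 (2.45 ± 0.23), the LURP-one-like AT3G14260 (2.44 ± 0.13), the terpene synthase TPS13 (2.41 ± 0.24), the late embryogenesis abundant protein AT3G15670 (2.37 ± 0.26) and the CAP family protein AT4G33720 (2.33 ± 0.39). The call of AT4G33720 was lost without WT BA 1 (adjusted p = 0.0627), WT BA 2 (0.0619) or hy5 BA 2 (0.0519).

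RNA of flavonol synthesis genes was lower from the first committed enzyme to the addition of sugars. Of 15 enzyme and transporter genes tested 10 were lower and 0 higher by edgeR, with a median fold of -1.04 against 0.01 over all genes; 1 had a positive fold at an unadjusted p under 0.05, and DESeq2 called 0 higher. Chalcone synthase TT4, the first committed enzyme, had 181 and 183 CPM in WT BA and 6.06 and 1.7 CPM in hy5 BA (-5.52 ± 0.43, adjusted p = 0.0013). Flavonol synthase FLS1 had 40.5 and 44.2 CPM in WT BA and 1.44 and 0.803 CPM in hy5 BA (-5.22 ± 0.15, adjusted p = 3.57e-12), and flavanone 3-hydroxylase F3H had 58.9 and 56.8 CPM in WT BA and 2.51 and 1.02 CPM in hy5 BA (-5.01 ± 0.24). Chalcone isomerase TT5 (-3.63 ± 0.15), its helper protein CHIL (-3.02 ± 0.13) and the flavonoid 3′-hydroxylase TT7 (-3.44 ± 0.19) were lower too. These 6 genes were each at least 8-fold lower in the mutant.

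Genes of later steps were lower by less. The flavonoid glucosyltransferase UGT78D2 had 32.5 and 31.2 CPM in WT BA and 11 and 11.3 CPM in hy5 BA (-1.52 ± 0.08, adjusted p = 2.27e-09). The flavonol rhamnosyltransferase UGT78D1 was at -1.04 ± 0.16, RHM1, which makes the rhamnose donor, at -0.53 ± 0.07, and the rhamnosyltransferase AT1G06000 at -0.33 ± 0.07, a call lost without both libraries of near-whole counts (adjusted p = 0.0652). Genes of the anthocyanin and proanthocyanidin branches were close to the detection limit. DFR, the first enzyme of that branch, had 0.395 and 0.256 CPM in WT BA and 0.0564 and 0.34 CPM in hy5 BA (-0.74 ± 0.61, adjusted p = 0.428), and LDOX had too few counts to be tested.

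Of 5 flavonoid regulators tested 2 were lower. MYB12, an activator of flavonol synthesis, had 13.8 and 15.7 CPM in WT BA and 0.761 and 0.309 CPM in hy5 BA (-4.75 ± 0.26, adjusted p = 7.96e-08). MYB4, a repressor in phenylpropanoid metabolism, was at -0.42 ± 0.08 (adjusted p = 0.00164), a call lost without both libraries of near-whole counts (adjusted p = 0.0694). At the entry to phenylpropanoids 2 of 8 genes were higher and 1 lower, where 11% of all genes tested were called higher and 12.4% lower. The lower one was 4CL3, the ligase form linked to flavonoids, with 14.7 and 16.3 CPM in WT BA and 3.21 and 3.89 CPM in hy5 BA (-2.13 ± 0.12). The higher ones were the ammonia lyases PAL3 (1.33 ± 0.20) and PAL4, which had 62.6 and 73.3 CPM in WT BA and 118 and 113 CPM in hy5 BA (0.77 ± 0.11).

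**Figure D1:**
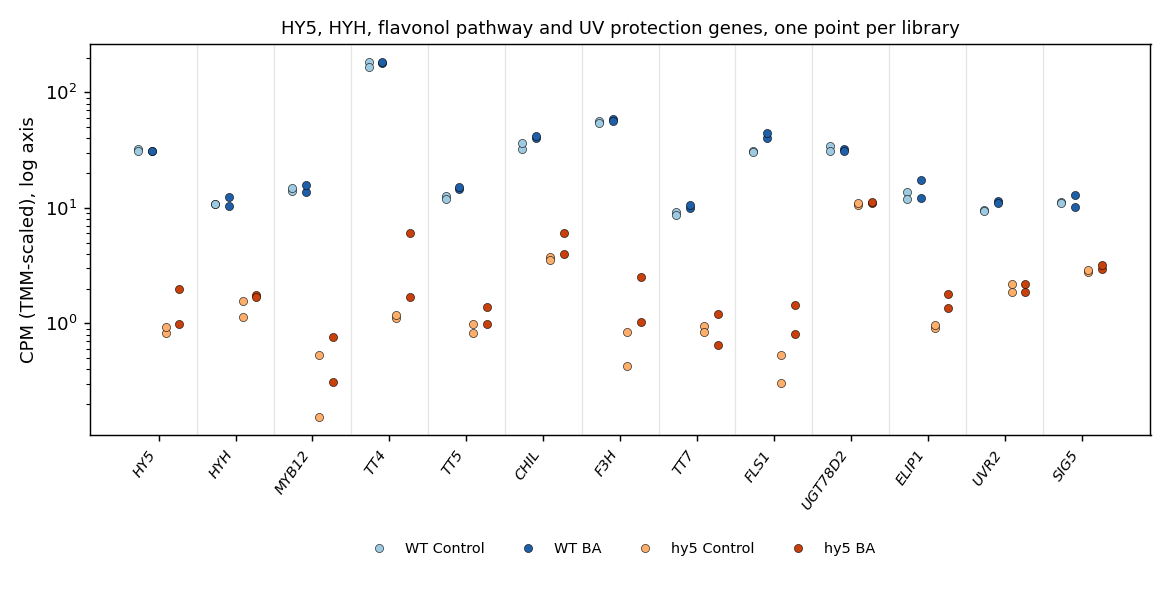
Levels of HY5, HYH, flavonol pathway and UV protection genes in each library, as TMM-scaled CPM on a log axis, with 1 point per library and 2 per group. In every gene plotted both hy5 BA points lie below both WT BA points, as in 29.5% of all genes tested. TT4 spans 183 CPM in WT BA 2 to 1.7 CPM in hy5 BA 2.

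Light signalling genes were mostly lower. Of 30 tested, HY5 included, 18 were lower and 1 higher, with a median fold of -0.46. HYH, the closest relative of HY5, had 10.5 and 12.4 CPM in WT BA and 1.75 and 1.7 CPM in hy5 BA (-2.73 ± 0.15, adjusted p = 2.29e-09). HFR1, a bHLH protein that restrains phytochrome-interacting factors, had 10.4 and 12.9 CPM in WT BA and 1.1 and 0.587 CPM in hy5 BA (-3.77 ± 0.24, adjusted p = 2.02e-07). In both genes the 2 groups lay far apart.

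The lower genes included negative regulators of the pathway. SPA4 (-2.27 ± 0.16), SPA3 (-1.92 ± 0.13) and SPA1 (-0.62 ± 0.08) were lower, whereas COP1 had 35.8 and 37.2 CPM in WT BA and 32.4 and 33.2 CPM in hy5 BA and was not called (-0.15 ± 0.07, adjusted p = 0.144). RUP1 (-1.48 ± 0.20) and RUP2 (-0.88 ± 0.17), which switch off the UV-B receptor, were lower. The B-box factors BBX20 (-1.39 ± 0.13), BBX22 (-1.11 ± 0.08) and BBX24 (-1.02 ± 0.07) were lower, and BBX25 was not called (0.09 ± 0.09, adjusted p = 0.53). Among photoreceptors PHOT1 was at -0.74 ± 0.07, PHYB at -0.46 ± 0.08, PHYA at -0.45 ± 0.07, CRY2 at -0.44 ± 0.07 and CRY1 at -0.35 ± 0.07, all called, while PHOT2 had 0.27 ± 0.12 (adjusted p = 0.125). The higher gene was GBF1, another G-box binding bZIP factor (0.27 ± 0.07), and its call was lost without WT BA 2 (adjusted p = 0.0537) or hy5 BA 1 (0.0995).

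All 5 genes of UV and high-light protection were lower. ELIP1, an early light-induced protein of the thylakoid, had 12.1 and 17.6 CPM in WT BA and 1.8 and 1.36 CPM in hy5 BA (-3.22 ± 0.20, adjusted p = 8.14e-08). UVR2, a photolyase that repairs UV damage in DNA, had 11.4 and 11.1 CPM in WT BA and 2.17 and 1.89 CPM in hy5 BA (-2.47 ± 0.14). The plastid sigma factor SIG5 was at -1.92 ± 0.14 and the photolyase UVR3 at -0.66 ± 0.10. ELIP2 (-0.78 ± 0.23) lost its call without WT BA 2 or either hy5 BA library.

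Nuclear photosystem and light-harvesting genes were lower in 30 of 36 cases and higher in 0 by edgeR, with a median fold of -1.81. Of the others 2 had positive folds at an unadjusted p under 0.05, and DESeq2 called 1 higher. PSBO1, of the oxygen-evolving complex of photosystem II, had 50.4 and 49.7 CPM in WT BA and 9.67 and 9.79 CPM in hy5 BA (-2.36 ± 0.09, adjusted p = 3.97e-11). PSBR, also of photosystem II, had 83 and 87.9 CPM in WT BA and 19.8 and 17.1 CPM in hy5 BA (-2.21 ± 0.08), and PSAF, of photosystem I, had 22 and 17.5 CPM in WT BA and 2.25 and 2.23 CPM in hy5 BA (-3.14 ± 0.16). These were 4-fold or more lower in the mutant, with its 2 libraries close together. The calls of LHCA1, LHCA2, LHCB2.1, LHCB3, PSAG, PSAH2 and PSAL were lost without 1 or more of the libraries compared.

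The antenna genes differed among themselves. LHCB1.5 had 39.7 and 27.6 CPM in WT BA and 3.92 and 3.65 CPM in hy5 BA (-3.15 ± 0.35, adjusted p = 0.00284), whereas LHCA4 (-0.87 ± 0.11) and LHCB4.2 (-0.72 ± 0.12) changed less. LHCB1.1 had 0.0987 and 0.0959 CPM in WT BA and 0.874 and 2.32 CPM in hy5 BA (adjusted p = 0.111, with 3 counts in each WT BA library), and LHCB1.3 had 64.6 and 39.6 CPM in WT BA and 12.7 and 12.6 CPM in hy5 BA (-2.04 ± 0.71, adjusted p = 0.129). LHCB1.1 and LHCB1.3 share 823 bases at 96.1% identity, and LHCB1.2 and LHCB1.3 share 836 bases, so how reads were divided among these copies is uncertain. Without hy5 Control 1, or without hy5 Control 2, 3 photosystem genes were called higher.

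Photosynthetic electron carriers and carbon fixation had 7 of 12 genes lower and 1 higher. ATPC1, the gamma subunit of the chloroplast ATP synthase, had 10.8 and 10.1 CPM in WT BA and 1.27 and 1.27 CPM in hy5 BA (-3.04 ± 0.15, adjusted p = 3.82e-10). Plastocyanin PETE2 (-2.83 ± 0.21), the Rieske protein PETC (-2.30 ± 0.13) and Rubisco activase RCA (-1.38 ± 0.12) were lower. The small subunit genes of Rubisco were less certain: RBCS1A had 51 and 41.1 CPM in WT BA and 12.3 and 12.8 CPM in hy5 BA (-1.87 ± 0.34, adjusted p = 0.0189) and RBCS1B had 0 and 0.064 CPM in WT BA and 0.479 and 1.48 CPM in hy5 BA (adjusted p = 0.0306), with 0 and 2 counts in WT BA, too few for a fold. The call of RBCS1A was lost without any 1 of the 4 WT or the 2 hy5 BA libraries, and that of RBCS1B without WT BA 1, WT BA 2 or hy5 BA 2; with either hy5 Control library left out, 3 genes of the list were higher.

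Of 18 chlorophyll synthesis genes 11 were lower and 1 higher, and 7 were lower without hy5 BA 2. CHLH, the large subunit of magnesium chelatase, had 33.6 and 31.4 CPM in WT BA and 3.97 and 4.29 CPM in hy5 BA (-2.97 ± 0.11, adjusted p = 2.6e-11). Chlorophyll synthase CHLG had 9.18 and 9.08 CPM in WT BA and 1.04 and 0.896 CPM in hy5 BA (-3.23 ± 0.16), and PORB, a light-dependent reductase, had 10.1 and 6.56 CPM in WT BA and 1.52 and 1.92 CPM in hy5 BA (-2.27 ± 0.26). The higher gene was HEMA2, a glutamyl-tRNA reductase form, with 60 and 58.7 CPM in WT BA and 93 and 81.2 CPM in hy5 BA (0.55 ± 0.08). Its relative HEMA1 was at -0.24 ± 0.07, a call lost without WT BA 2 or hy5 BA 2. Of 7 greening regulators 3 were lower and 1 higher, and only SIG6 (-0.74 ± 0.14), a plastid sigma factor, kept its call in all runs that left out 1 library.

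The chloroplast genome itself was less clearly lower. Of 72 loci tested 17 were lower and 1 higher, with a median fold of -0.14. Over all genes tested 12.4% were called lower and 11% higher. ATCG00020 had 30.9 and 33.5 CPM in WT BA and 5.75 and 4.63 CPM in hy5 BA (-2.63 ± 0.12, adjusted p = 1.79e-10), and ATCG01020 had 21.8 and 20.7 CPM in WT BA and 8.01 and 7.63 CPM in hy5 BA (-1.44 ± 0.09). Summed over 88 loci the chloroplast genome took 498 and 389 CPM in WT BA and 321 and 392 CPM in hy5 BA, so the groups overlapped. There were 10 lower loci without hy5 BA 1, 11 without hy5 BA 2 and 9 by DESeq2, and from 0 to 3 higher loci in the runs without 1 library. ATCG00905 and ATCG01230 had the same level in each of the 4 libraries. Of 73 mitochondrial loci 3 were lower and 1 higher, with 2 to 5 lower and 0 to 8 higher in the runs without 1 library, the 8 without hy5 BA 1. RNA was selected with oligo-dT, and organelle transcripts mostly lack a poly(A) tail.

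**Figure D2:**
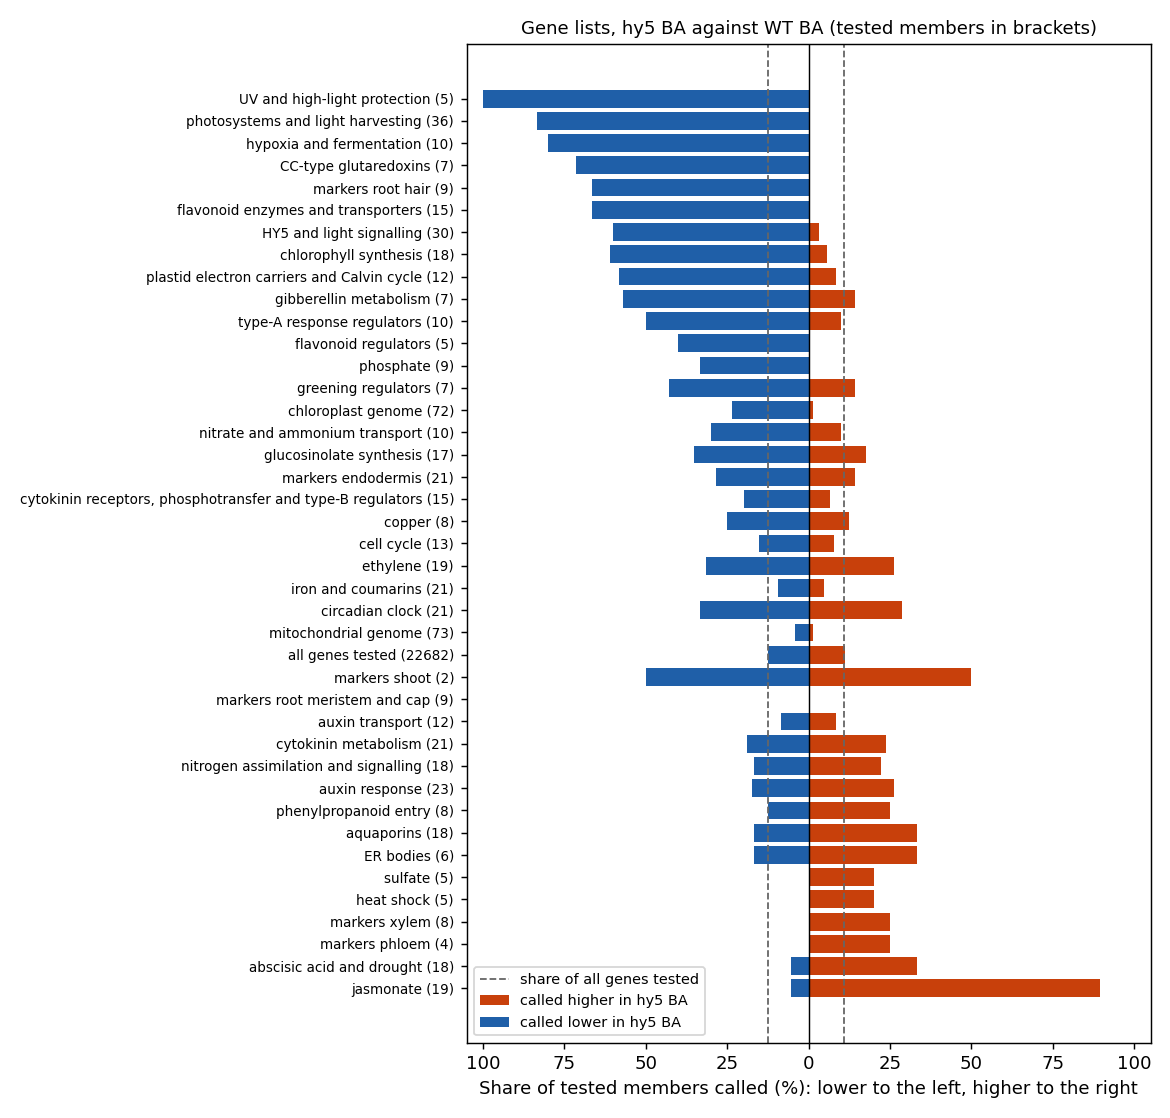
Share of the tested members of each gene list called higher (right) or lower (left) in hy5 BA than in WT BA, in percent, with dashed lines at the shares of all genes, 11% higher and 12.4% lower. The UV protection list, with 5 of 5 members lower, and the jasmonate list, with 17 of 19 higher, reach farthest to either side. The lists were chosen with earlier results of these data known, so their distance from the dashed lines is no test.

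Jasmonate genes were higher in 17 of 19 cases and lower in 1, with a median fold of 0.84. JAZ10, a repressor of jasmonate signalling that the hormone itself induces, had 33.1 and 35.2 CPM in WT BA and 91.2 and 82.1 CPM in hy5 BA (1.34 ± 0.07, adjusted p = 1.98e-09). JAZ8 (1.15 ± 0.10), JAZ5 (1.04 ± 0.08), JAZ2 (0.89 ± 0.10), JAZ7 (0.85 ± 0.11), JAZ6 (0.82 ± 0.07), JAZ9 (0.76 ± 0.10) and JAZ1 (0.65 ± 0.09) were higher as well. In each of these both hy5 BA libraries exceeded both WT BA libraries, as they did in 31.3% of all genes tested.

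Enzymes of jasmonate synthesis were higher too. The allene oxide synthase AOS had 93.5 and 97.9 CPM in WT BA and 216 and 193 CPM in hy5 BA (2.14-fold higher as a plain ratio, not a log2 value, adjusted p = 1.17e-07). The lipoxygenases LOX3 (1.00 ± 0.07) and LOX4 (0.84 ± 0.08), the cyclases AOC1 (1.11 ± 0.20), AOC2 (0.66 ± 0.11) and AOC3 (0.51 ± 0.08) and the reductase OPR3 (0.76 ± 0.09) were higher, as was the transcription factor MYC2 (0.48 ± 0.08). LOX2 had 0.165 and 0.064 CPM in WT BA and 0.226 and 0.742 CPM in hy5 BA, from 2 to 24 counts a library, and its call was lost in 5 runs that left out 1 library. The vegetative storage protein genes, often used as jasmonate markers, did not show this pattern: VSP1 was at -0.08 ± 0.10 (adjusted p = 0.661) and VSP2 had 178 and 123 CPM in WT BA and 50.6 and 32.9 CPM in hy5 BA (-1.84 ± 0.34, adjusted p = 0.0216), a call lost without WT BA 1, hy5 BA 2 or either hy5 Control library.

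**Figure D3:**
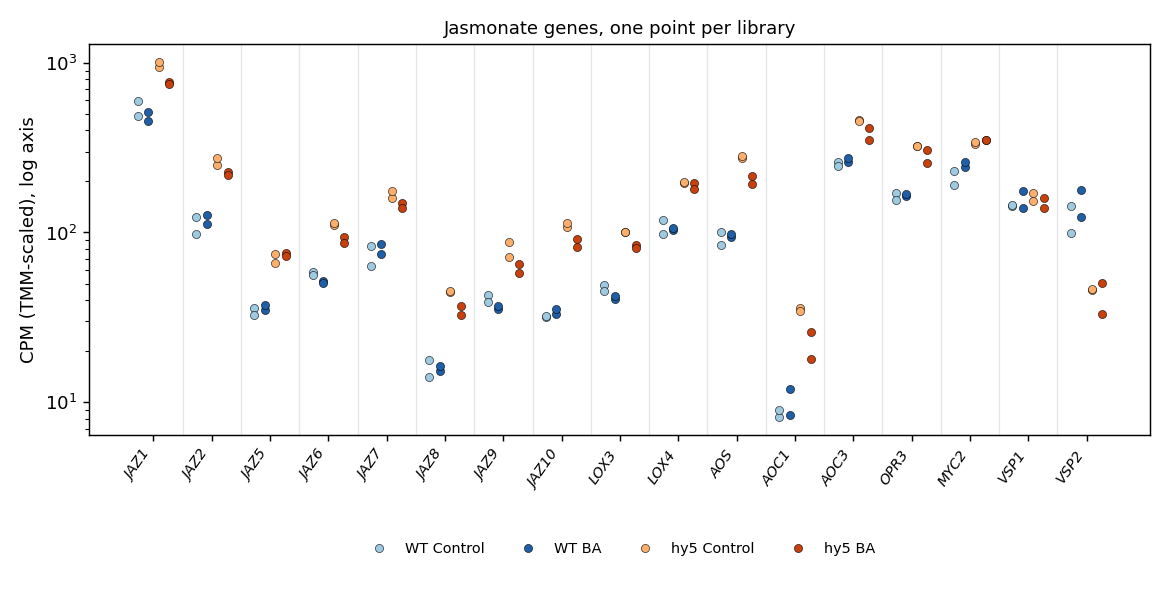
Levels of 17 jasmonate genes in each library, as TMM-scaled CPM on a log axis, with 1 point per library and 2 per group. Both hy5 BA points lie above both WT BA points in JAZ10 (91.2 and 82.1 against 33.1 and 35.2 CPM) and AOS, and below them in VSP2. Over all genes tested they lie above in 31.3% and below in 29.5%.

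The type-A response regulators, the early readout of cytokinin, were lower in 5 of 10 cases and higher in 1. For all genes tested the shares were 12.4% lower and 11% higher. ARR7 had 197 and 185 CPM in WT BA and 135 and 111 CPM in hy5 BA (-0.64 ± 0.11, adjusted p = 0.000809), and ARR4 had 165 and 161 CPM in WT BA and 123 and 115 CPM in hy5 BA (-0.45 ± 0.07, adjusted p = 0.000109). ARR16 was higher, with 4.61 and 4.06 CPM in WT BA and 6.54 and 6.58 CPM in hy5 BA (0.60 ± 0.13). The decreases were under 2-fold. The calls of ARR5 (-0.24 ± 0.07), ARR6 (-0.31 ± 0.08) and ARR9 (-0.35 ± 0.08) were lost without hy5 BA 2, so that 2 members were lower without it, and 3 were lower without WT BA 2.

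Upstream of them 3 of 15 receptors, phosphotransfer proteins and type-B regulators were lower and 1 higher. Over all genes tested 12.4% were lower and 11% higher, so these counts are near the general share. The receptor gene WOL had 111 and 106 CPM in WT BA and 83.8 and 80.3 CPM in hy5 BA (-0.40 ± 0.06, adjusted p = 0.000215). The type-B regulator ARR10 was at -0.68 ± 0.07 and the phosphotransfer protein AHP1 at -0.56 ± 0.08. AHP6, a pseudo-phosphotransfer protein that inhibits the pathway, was higher (0.99 ± 0.25), a call lost without WT BA 2 or hy5 BA 1 and with DESeq2 (adjusted p = 0.0766).

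Of 21 cytokinin metabolism genes 5 were higher and 4 lower, with 1 higher without hy5 BA 1, 2 without WT BA 1, 3 without WT BA 2 or hy5 BA 2, and 1 lower without hy5 BA 2. The cytokinin oxidase CKX4 had 2.76 and 3.29 CPM in WT BA and 10.6 and 11.6 CPM in hy5 BA (1.87 ± 0.13, adjusted p = 2.38e-08), and the oxidase CKX3 had 5.03 and 4.61 CPM in WT BA and 2.96 and 2.84 CPM in hy5 BA (-0.73 ± 0.17). DESeq2 called 2 genes of the list higher and 2 lower, and CKX3 was not called by it (adjusted p = 0.0532). For comparison, edgeR called 11% of all genes tested higher and 12.4% lower.

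Glutaredoxins of the CC type, small redox proteins, were lower in 5 of 7 tested genes, with a median fold of -1.22. AT4G15680 had 25.6 and 23.4 CPM in WT BA and 11.1 and 8.84 CPM in hy5 BA (-1.29 ± 0.12, adjusted p = 7.05e-07), and AT4G15690 had 9.84 and 8.32 CPM in WT BA and 3.1 and 2.94 CPM in hy5 BA (-1.59 ± 0.17). AT4G15670 (-0.99 ± 0.15) and AT4G15700 (-1.37 ± 0.23), in the same stretch of chromosome 4, were lower as well. AT3G62930 (-1.22 ± 0.32) lost its call without WT BA 1 or either hy5 BA library.

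Of 10 nitrate and ammonium transporters 1 was higher and 3 lower, with 1 lower without WT BA 2. The higher gene was the ammonium transporter AMT1;2, with 10.6 and 10.3 CPM in WT BA and 20.8 and 23.2 CPM in hy5 BA (1.07 ± 0.12, adjusted p = 7.79e-06). Over all genes tested 11% were called higher and 12.4% lower, so 1 of 10 higher is near the general share. Among 18 genes of nitrogen assimilation 4 were higher, led by ASN1, and 3 lower, led by the nitrogen-responsive repressor LBD39 with 45.9 and 35.7 CPM in WT BA and 17.2 and 17.9 CPM in hy5 BA (-1.22 ± 0.12). ASN1 was the 1 gene of that list higher without WT BA 1 or without hy5 BA 2, and 2 were higher without hy5 BA 1.

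Of 21 clock genes 7 were lower and 6 higher, where 12.4% of all genes tested were called lower and 11% higher. The morning-expressed MYB-like factors LHY and CCA1 were lower, LHY with 35.3 and 37.3 CPM in WT BA and 9.53 and 8.9 CPM in hy5 BA (-1.98 ± 0.08, adjusted p = 8.08e-11) and CCA1 with 40.8 and 40 CPM in WT BA and 17.7 and 16.9 CPM in hy5 BA (-1.22 ± 0.08). PRR9 (-1.27 ± 0.10) and ELF4 (-1.20 ± 0.09) were lower as well. PRR9 shares 440 bases with AT2G46670 at 99.3% identity, so the division of reads between them is uncertain. The higher genes changed less, among them PRR3 (0.78 ± 0.11), BOA (0.48 ± 0.10), LNK1 (0.47 ± 0.08) and GI (0.46 ± 0.09). TOC1 was not called (0.02 ± 0.07, adjusted p = 0.886). The time of day of harvest is not stated in the labels.

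Of 10 hypoxia and fermentation genes 8 were lower and 0 higher by edgeR or DESeq2 or at an unadjusted p under 0.05, with a median fold of -0.54, and 4 were lower without hy5 BA 2. Pyruvate decarboxylase PDC1 had 49.4 and 44.3 CPM in WT BA and 25.6 and 26 CPM in hy5 BA (-0.86 ± 0.09, adjusted p = 2.05e-06), and sucrose synthase SUS4 had 48.9 and 55 CPM in WT BA and 32.9 and 29.2 CPM in hy5 BA (-0.74 ± 0.08). The haemoglobin HB1 was at -0.59 ± 0.09 and the cysteine oxidase PCO2 at -1.58 ± 0.30. Alcohol dehydrogenase ADH1 had 60.9 and 40.4 CPM in WT BA and 39.5 and 31.1 CPM in hy5 BA and was not called (-0.52 ± 0.28, adjusted p = 0.284).

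Other hormone lists held calls in both directions, where 11% of all genes tested were called higher and 12.4% lower. Of 19 ethylene genes 5 were higher and 6 lower, with 1 lower without hy5 BA 2 and 3 higher without WT BA 1 or hy5 BA 1. Of the ACC synthases, which start ethylene synthesis, ACS2 had 25.9 and 33.1 CPM in WT BA and 48.5 and 48.3 CPM in hy5 BA (0.71 ± 0.09) and ACS7 had 24.1 and 24.1 CPM in WT BA and 14.1 and 13.4 CPM in hy5 BA (-0.81 ± 0.09). Of 18 abscisic acid and drought genes 6 were higher and 1 lower, with 2 lower in 5 runs without 1 library: WT Control 1 or 2, WT BA 1 or 2, or hy5 BA 1. RAB18, the proline synthesis gene P5CS1 (0.67 ± 0.07), RD29B (0.73 ± 0.11) and NCED3 (0.58 ± 0.10), which makes the abscisic acid precursor, were higher. The bZIP factor ABI5 was lower, with 2.37 and 2.59 CPM in WT BA and 0.789 and 0.865 CPM in hy5 BA (-1.58 ± 0.21, adjusted p = 3.94e-05).

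Of 23 auxin response genes 6 were higher and 4 lower, but 1 to 3 were higher without any 1 of WT BA 1, WT BA 2 and the 4 hy5 libraries, and 2 were lower without hy5 BA 2. LBD16, which acts in lateral root initiation (0.74 ± 0.15), and the repressors IAA7 (-0.46 ± 0.08) and IAA4 (-0.39 ± 0.07) kept their calls in those runs, though LBD16 lost its call without both libraries of near-whole counts (adjusted p = 0.0515). Auxin transport had 1 of 12 higher and 1 lower, with 0 of either without hy5 BA 1 or without hy5 BA 2, and 3 higher without WT BA 2. The shares over all genes tested were 11% higher and 12.4% lower. Of 7 gibberellin metabolism genes 4 were lower and 1 higher, with 1 lower without WT BA 1 and 2 without WT BA 2 or hy5 BA 1, and 0 higher without WT BA 1 or hy5 BA 1. The biosynthetic oxidase GA20OX2 (-0.93 ± 0.18) was lower in all those runs.

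Nutrient and other metabolic lists held few stable calls. For comparison, 11% of all genes tested were called higher and 12.4% lower. Iron and coumarin genes had 1 of 21 higher and 2 lower, of which the ferric reductase FRO3 (-0.63 ± 0.08) kept its call. The higher one lost it in 6 of 8 runs without 1 library, and 4 were lower without either WT Control library. Of 8 copper genes COPT1 was higher (0.85 ± 0.17) and 2 were lower, of which FRO4 (-0.86 ± 0.09) kept its call and COPT2 (-0.62 ± 0.14) lost it without WT BA 2 or either hy5 BA library. Of 9 phosphate genes 3 were lower, with 0 lower and 1 higher without WT BA 2, and 1 lower without hy5 BA 2. Of 5 sulfate genes 1 was higher, a call lost without WT BA 1 or hy5 BA 2, and 2 were lower without WT BA 2. Glucosinolate synthesis had 3 of 17 higher and 6 lower, with 1 lower without WT BA 1, 3 without hy5 BA 1 and 0 without hy5 BA 2.

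Of 6 endoplasmic reticulum body genes 2 were higher and 1 lower, with 1 higher without WT BA 1, WT BA 2 or hy5 BA 2. The beta-glucosidase gene BGLU22 had 526 and 514 CPM in WT BA and 941 and 866 CPM in hy5 BA (0.80 ± 0.08), and its relative PYK10 had 5382 and 5652 CPM in WT BA and 3917 and 3595 CPM in hy5 BA (-0.55 ± 0.09). Of 18 aquaporins 6 were higher and 3 lower, with 3 higher without WT BA 1. PIP1;2 had 606 and 707 CPM in WT BA and 1192 and 1231 CPM in hy5 BA (0.88 ± 0.09), while PIP2;6 (-1.74 ± 0.13) and PIP2;3 (-1.22 ± 0.07) were lower. Of 13 cell cycle genes 1 was higher and 2 lower, where 11% of all genes tested were called higher and 12.4% lower. Only the inhibitor KRP2 (-0.91 ± 0.10) kept its call without each 1 library. Of 5 heat shock genes HSFA2 was higher (0.45 ± 0.07).

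Markers of root cell types changed unequally, where 12.4% of all genes tested were called lower and 11% higher. Of 9 root hair markers 6 were lower and 0 higher by edgeR or DESeq2 or at an unadjusted p under 0.05, and their sum was 185 and 222 CPM in WT BA and 148 and 140 CPM in hy5 BA. The hair expansin EXPA7 had 21 and 27.8 CPM in WT BA and 12.6 and 11.7 CPM in hy5 BA (-1.01 ± 0.12), COW1 was at -0.77 ± 0.11 and PRP3 at -0.70 ± 0.10, while the early regulator RHD6 was not called (0.05 ± 0.12, adjusted p = 0.804). Of 21 endodermis markers 6 were lower and 3 higher, with 1 higher without WT BA 1 or either hy5 BA library. Their sums overlapped, at 1184 and 1323 CPM in WT BA and 1199 and 1139 CPM in hy5 BA. The suberin genes FAR1 (-0.90 ± 0.07) and ASFT (-0.72 ± 0.09) were lower.

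Of 9 meristem and cap markers edgeR and DESeq2 called 0, 2 had positive folds at an unadjusted p under 0.05, and 1, PLT2, was called without hy5 BA 2. Their sum was 72.1 and 71 CPM in WT BA and 75.9 and 74.4 CPM in hy5 BA. Of 8 xylem markers 2 were higher, the peptidases XCP1 (0.44 ± 0.09) and XCP2 (0.32 ± 0.08), the second of which lost its call without WT BA 1 or either hy5 BA library. The xylem sum was 426 and 462 CPM in WT BA and 545 and 532 CPM in hy5 BA. Of 4 phloem markers 1 was higher, a call lost in 6 of 8 runs without 1 library. Over all genes tested 11% were called higher and 12.4% lower. Of the 8 xylem folds 7 were above 0, against 11721 of 22682 over all genes. Whether these short lists differ from the general share was not tested.

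Shoot markers were few. Of 7 only KNAT1 and CA1 had enough counts to be tested, and STM, FIL, YAB3, SPCH and FAMA were at 0.247 CPM or less in each of the 4 libraries. The homeobox gene KNAT1 had 10.8 and 8.64 CPM in WT BA and 2.03 and 1.67 CPM in hy5 BA (-2.38 ± 0.16), and the carbonic anhydrase CA1 had 2.63 and 1.47 CPM in WT BA and 5.58 and 7.23 CPM in hy5 BA (1.64 ± 0.23). The sum over all 7 was 13.7 and 10.4 CPM in WT BA and 7.95 and 9.49 CPM in hy5 BA. This sum was lower in the mutant through KNAT1, while CA1, the other tested member, was higher. CA1 shares 343 bases with AT3G01510 at 100% identity, so the division of reads between them is uncertain. The part of shoot tissue in the photosystem folds was not tested.

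The mutation was then compared with its effect in control medium, where 5696 genes were called (25.1%), 3103 higher (13.7%) and 2593 lower (11.4%). With library size as the only scaling these were 2303 higher and 4263 lower, and the median fold of all genes was -0.09. Genes called lower in both media numbered 1664, 59.1% of those lower with BA and 64.2% of those lower in control medium. Genes called higher in both numbered 1659, which is 66.2% and 53.5%, and 18 were called in opposite directions. Of the genes at least 2-fold lower with BA 563 of 566 had a negative fold in control medium, and of those at least 2-fold higher 412 of 430 had a positive one. These comparisons share no library, but they share the genotypes and 1 estimate of the spread.

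**Figure D4:**
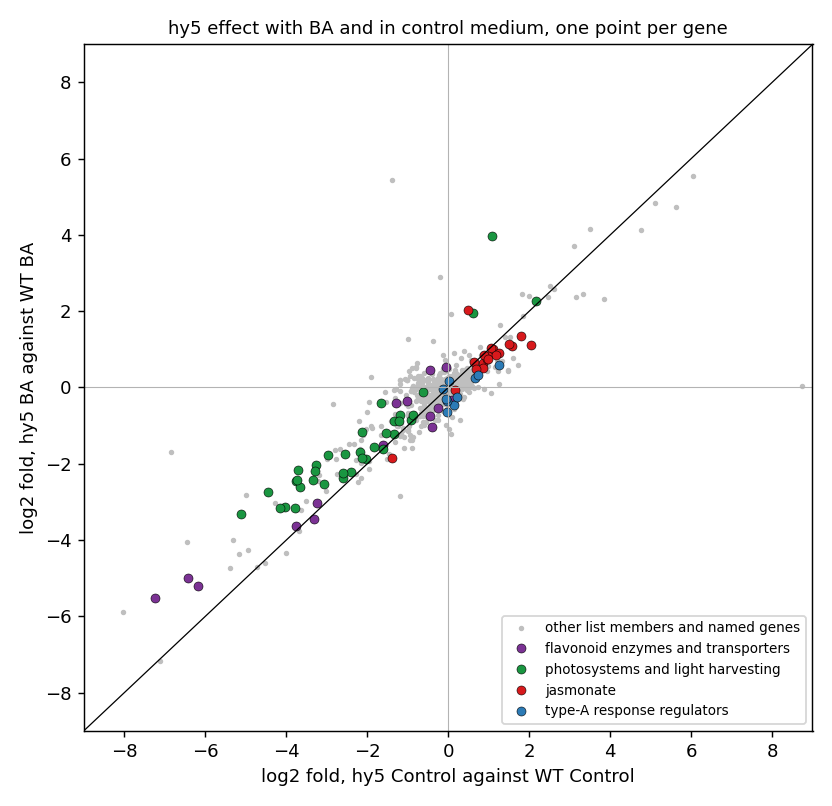
Log2 fold of hy5 over WT with BA (vertical) against that in control medium (horizontal) for 669 tested list members and named genes, with the line of equal folds. The photosystem genes lie mostly below 0 on both axes, with medians of -1.81 with BA and -2.29 in control medium.

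A test of the difference between the media called 110 genes (0.485%), 99 with a more negative hy5 effect with BA (0.436%) and 11 with a more positive one (0.0485%). The 99 genes had median folds of 0.73 in control medium and 0.02 with BA, and in 83 of them the fold was smaller in size with BA. RSL4, a root hair regulator, had 5.82 and 5.39 CPM in WT Control, 12.3 and 11.1 CPM in hy5 Control, 10.7 and 12 CPM in WT BA and 11.6 and 9.05 CPM in hy5 BA. Its hy5 effect differed by -1.19 ± 0.18 (adjusted p = 0.0146). WT Control stood below the other 3 groups, which overlapped. The SAUR-like gene AT4G22620 had 8.08 and 8.41 CPM in WT Control, 20.8 and 18.3 CPM in hy5 Control, 20.4 and 21.9 CPM in WT BA and 24.7 and 20.7 CPM in hy5 BA (difference -1.14 ± 0.14, adjusted p = 0.00516).

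The ACC synthase ACS5 was higher in hy5 by 1.73 ± 0.16 in control medium and by 0.58 ± 0.12 with BA, the second a call lost without hy5 BA 1 (difference -1.15 ± 0.20, adjusted p = 0.0211). ARR4 had 29.4 and 29.9 CPM in WT Control and 31.3 and 33.9 CPM in hy5 Control (0.14 ± 0.07, adjusted p = 0.21), and its genotypes were apart with BA (difference -0.59 ± 0.10, adjusted p = 0.0211). ATPC1 was -4.28 ± 0.17 in control medium and -3.04 ± 0.15 with BA (difference 1.24 ± 0.26, adjusted p = 0.0463). Single libraries set much of the count of differences, which was 6 without hy5 BA 2, 7 without hy5 Control 1, 14 without WT BA 1, 17 without WT BA 2, 23 without hy5 Control 2, 271 without hy5 BA 1 and 331 without WT Control 1.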

How the data were processed

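Oligo-dT purified RNA from excised roots was sequenced, with 2 libraries per group. Per the file headers and the submitters' processing notes, the authors deposited Salmon estimated counts and TPM per transcript against TAIR10, with no version of Salmon named. Here the estimated counts were summed per locus and rounded; TPM served only to weight effective lengths in 1 alternative. The tables held 48332 transcripts of 27628 loci. Loci passing filterByExpr (minimum count 10) were fitted with edgeR 4.0.16 (TMM, robust quasi-likelihood, R 4.3.3) in 1 model of 4 group means over 8 libraries, with Benjamini-Hochberg adjustment over 22682 genes. Residual degrees of freedom were 4 and the common coefficient of variation was 0.0596. Standard errors are the absolute fold over the square root of F.

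In simulated counts for the hy5 effect with BA over 22682 genes, 68.7% of 1.5-fold, 88.1% of 2-fold and 93.9% of 4-fold changes were recovered, with 9 false calls. Only 67, 67 and 66 genes were changed, in hy5 BA alone, and every other gene had the same mean in all 4 groups. The spread was drawn from the fit itself. The real data held 5321 calls, so these rates do not give the error among them. Total counts were 29928501 to 35289411 per library, and replicates of a group differed by a chi-square of 3.79 to 7.64 per gene, more than sampling noise. Alternatives were DESeq2 1.42.0, other scalings and filters, a replicate block, and leaving out libraries. Motifs were sought in TAIR10.1, and near-copies by blastn (at least 95% identity over 150 bases).

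The named genes were HY5, HYH, the 12 largest called changes each way (mean log2 CPM 1 or more, groups not overlapping), the up to 4 called genes of each list with the smallest p (2 where none was called) and 8 genes of the interaction. Others are list members chosen after their values were seen. The members and lists were chosen with earlier results of these data known.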

Additional observations from a re-analysis of the deposited data

Results flagged for a closer look

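The interaction test of edgeR's quasi-likelihood fit called a different hy5 effect with BA than in control medium for 18 genes (adjusted p under 0.05). These are members of the lists or among the 8 with the smallest p. Whether each keeps its call without 1 library is not given here, and the total of such calls moved widely between those runs. Each value is the log2 fold of hy5 over WT with BA less that in control medium. It was negative for ARR4 (-0.59), the ACC synthases ACS8 (-0.617) and ACS5 (-1.15), the gibberellin oxidase GA2OX2 (-0.647), pyruvate decarboxylase PDC1 (-0.609), the root hair regulator RSL4 (-1.19), the SAUR-like AT4G22620 (-1.14), the nucleoside triphosphate hydrolase AT3G28600 (-1.05), the lectin AT5G35940 (-0.787), AT3G55720 (-0.923), the aspartyl protease AT5G19110 (-0.826), F6'H1 of coumarin synthesis (-0.711) and the ER body regulator NAI1 (-0.529). It was positive for ATPC1 (1.24) and the chloroplast loci ATCG00020 (0.982), ATCG00490 (0.95) and ATCG00680 (1.17).

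AT5G36670 had a fitted difference of -8.69. It was at 0 in both WT Control libraries, 1.62 and 1.65 CPM in hy5 Control, 2.24 and 3.2 CPM in WT BA and 2.25 and 3.4 CPM in hy5 BA, so the fitted size depends on the prior count and is no bound. Of its transcript 70.8% is identical to AT5G36740, and how reads were divided between them is uncertain.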

How the results depend on the processing

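Left out 1 at a time, the libraries gave 3366 to 5658 calls for the hy5 effect with BA, 1586 to 2706 higher and 1780 to 3013 lower, 3685 to 5860 calls in control medium and 6 to 331 calls for the difference between media. Without hy5 Control 1 and hy5 BA 2 together there were 2998 calls with BA (1392 higher, 1606 lower), 3430 in control medium and 6 for the difference. The difference had 55 calls with library size as the only scaling, 52 with a minimum count of 50 and 316 with DESeq2; a fit of only the libraries compared gives no value for it. Genes lower in control medium numbered 4263 with library size as the only scaling, against 2593 in the main fit. Apart from these values, the other settings kept every count over all genes within 1.5 times. With DESeq2 the calls within lists moved by over 1.5 times for greening regulators (1 lower, 0 higher), cytokinin metabolism (2 higher, 2 lower), auxin response (1 higher), auxin transport (0), gibberellin metabolism (2 lower), abscisic acid (2 lower), endodermis (1 higher), phloem (0), the chloroplast (9 lower, 0 higher) and mitochondrial (1 lower, 0 higher) genomes, electron carriers (0 higher), cytokinin receptors (0 higher), sulfate (1 lower) and photosystems (1 higher). The replicate numbers did not pair the libraries (correlations of same-numbered deviations from -0.068 to 0.024), and with the replicate block there were 4968 calls with BA and 5300 in control medium. No named gene changed direction. With 2 libraries per group, changes under 2-fold are the least certain; the cause of the losses was not tested.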

Other observations

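Families were counted by the product name of the annotation, over the 141 names with 15 or more tested genes; those below were chosen after their values were seen, with no test. In hy5 BA, 7 of 15 terpenoid cyclase genes were higher and 1 lower, and 7 of 15 LURP-one-like genes were higher and 0 lower. The median fold was 0.41 over the terpenoid cyclase genes but -0.03 over the LURP-one-like genes. Of the TRAF-like genes 10 of 26 were higher and 2 lower, and of the Concanavalin A-like lectin protein kinases 11 of 35 were higher and 1 lower. Of 54 MATE efflux genes 15 were higher and 5 lower. The shares over all genes were 11% higher and 12.4% lower.

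Among families with more decreases, 16 of 56 hydroxyproline-rich glycoprotein genes were lower and 1 higher, and 10 of 29 cysteine proteinase genes were lower and 0 higher. Of the disease resistance genes of the CC-NBS-LRR class 8 of 23 were lower and 0 higher, whereas those of the TIR-NBS-LRR class had 12 of 62 higher and 7 lower. Peroxidases, with 14 of 57 higher and 19 lower, held many calls in both directions. Members of a family share sequence, so their counts are not independent.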
